A study of Mus musculus with 6 samples.

Results

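The chromatin at the genes for cytosolic ribosomal proteins was compared between bone marrow stromal cells of mice given doxorubicin and of mice given saline. Members were all mouse protein-coding genes whose symbol starts with Rpl or Rps followed by a number, and Rpsa, Rplp0, Rplp1 and Rplp2. The Rps6k kinases, Rps19bp1 and pseudogenes were left out. This gave 88 of 21631 protein-coding genes on chromosomes 1 to 19 and X. They comprised 43 genes for the large (60S) subunit, 31 for the small (40S) subunit, 3 for the stalk of the large subunit, and 11 paralogs or variants whose symbols end in letters such as l, al, l1 or rt. The rule used symbols only and no measured value.

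Open chromatin was measured by ATAC-seq, where Tn5 transposase inserts sequencing adapters into DNA that nucleosomes leave free and pileups of inserts are listed as peaks. The cells were mesenchymal stem and progenitor cells (MSPCs), sorted by tdTomato from bone marrow of Lepr-Cre;LSL-tdTomato+/- mice, a genotype that all libraries shared. In these mice Cre made by the leptin receptor gene removes a stop cassette, and the cell and its descendants then fluoresce red, so that the sort takes a lineage and not a single cell type. Doxorubicin (DOX) is an anthracycline that traps topoisomerase II on DNA and breaks it. The DOX group received 4 intravenous injections of 5 mg/kg, 1 week apart, and the PBS group received 4 intravenous injections of phosphate-buffered saline. All mice were female and 8 to 10 weeks old at treatment, and cells were taken 8 weeks after it. Each group had 3 libraries, called biological replicates by their titles. The strain background, and whether a library came from 1 mouse or a pool, are not stated in the labels. The p-values therefore reflect only how much libraries of 1 group vary. The comparison asks what the drug left behind in the chromatin of these cells.

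A cytosolic ribosome is built from ribosomal RNA and a single copy of nearly every ribosomal protein, so that cells make these proteins in matched amounts. Their genes are short, strongly transcribed in almost every cell type, and scattered over the genome. Many of their mRNAs start at a run of pyrimidines, the 5′ terminal oligopyrimidine tract, through which mTOR and Larp1 set their translation. Their promoters are known for binding sites of ETS factors such as GABPA, of SP1 and of YY1, and for a pyrimidine initiator, the TCT element, in place of the usual one. When ribosome assembly fails, Rpl5 and Rpl11 with 5S ribosomal RNA bind Mdm2 and so stabilise p53.

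A set of 3 measures was read from the deposited peak lists, for the highest peak that overlapped the 1 kb on both sides of either end of a gene. The first is the authors' fold enrichment, (pileup at the summit + 1) / (background + 1). The second is the peak's width, and the third the percentile of each within its library among the 12578 genes that had such a peak in all 6 libraries. The percentile is needed because the libraries differ in depth. The background, in fragments per position, was 1.27, 1.10 and 0.558 in PBS replicates 1, 2 and 3 and 1.72, 1.67 and 2.22 in DOX replicates 1, 2 and 3, and the lists held 65462 to 100642 peaks. By this measure every DOX library was deeper than every PBS library. Depth and treatment therefore cannot be told apart, in unranked values or in percentiles. Of 10 MSPC markers, 9 to 10 had a gene-end peak in each library. Ptprc, which marks blood cells, had none in any library. Among the other marrow cells, 2 of 5 B cell, 2 of 5 T cell, 2 to 4 of 6 myeloid, 3 of 5 erythroid and 1 to 2 of 5 endothelial markers had one.

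The promoters of 9 members that the results turn on are given here from RefSeq (assembly GRCm38.p6, which mm10 displays), each from 120 bases before to 30 bases from the listed start, 5′ to 3′ on the transcript strand. Capitals mark matches to motifs. The ETS motif was searched as CCGGAA on both strands. SP1 was searched as GGGCGG, YY1 as AANATGGC, the E-box bound by MYC as CACGTG and the TATA box as TATAAA, likewise on both strands. The core of TCT was searched on the transcript strand alone, within 10 bases of the start, as TCTTT and, in its other form, as CCTTT. Rps21 (chr2:180257259-180257408, plus strand) had a peak near the top of the range. Rpl37a (chr1:72711140-72711289, plus) had the lowest. Rpl5 (chr5:107900408-107900557, plus) and Rps26 (chr10:128626477-128626626, minus) had the smallest p-values for a lower peak in DOX. Rps27 (chr3:90213619-90213768, minus) and Rps27l (chr9:66945966-66946115, plus), and Rpl39 (chrX:37085193-37085342, minus) and Rpl39l (chr16:10170108-10170257, plus), are parent and paralog. Rps2 (chr17:24719943-24720092, plus) has its start deep inside its annotated span.
Rps21: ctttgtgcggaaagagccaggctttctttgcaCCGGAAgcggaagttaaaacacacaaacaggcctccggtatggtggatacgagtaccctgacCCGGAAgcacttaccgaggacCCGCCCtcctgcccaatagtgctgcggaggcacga
Rpl37a: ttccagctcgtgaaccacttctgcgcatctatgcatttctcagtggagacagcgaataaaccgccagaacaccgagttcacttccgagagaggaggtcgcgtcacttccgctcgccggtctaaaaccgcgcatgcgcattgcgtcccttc
Rpl5: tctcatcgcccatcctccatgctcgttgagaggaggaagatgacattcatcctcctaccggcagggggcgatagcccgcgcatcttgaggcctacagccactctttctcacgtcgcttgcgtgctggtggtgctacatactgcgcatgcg
Rps26: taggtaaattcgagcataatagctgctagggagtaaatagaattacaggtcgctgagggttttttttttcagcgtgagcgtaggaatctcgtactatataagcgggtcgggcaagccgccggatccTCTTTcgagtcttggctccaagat
Rps27: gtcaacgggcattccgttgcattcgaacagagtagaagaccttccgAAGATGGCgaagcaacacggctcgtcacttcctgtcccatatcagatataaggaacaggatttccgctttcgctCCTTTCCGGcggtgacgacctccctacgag
Rps27l: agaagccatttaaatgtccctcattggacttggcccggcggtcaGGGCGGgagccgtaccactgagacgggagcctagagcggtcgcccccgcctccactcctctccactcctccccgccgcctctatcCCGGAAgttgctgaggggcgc
Rpl39: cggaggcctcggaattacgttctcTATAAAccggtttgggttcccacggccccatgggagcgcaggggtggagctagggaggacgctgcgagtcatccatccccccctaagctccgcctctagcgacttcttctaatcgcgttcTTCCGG
Rpl39l: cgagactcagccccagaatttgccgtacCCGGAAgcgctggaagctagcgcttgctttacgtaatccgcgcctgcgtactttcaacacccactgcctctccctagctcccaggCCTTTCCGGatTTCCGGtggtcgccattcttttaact
Rps2: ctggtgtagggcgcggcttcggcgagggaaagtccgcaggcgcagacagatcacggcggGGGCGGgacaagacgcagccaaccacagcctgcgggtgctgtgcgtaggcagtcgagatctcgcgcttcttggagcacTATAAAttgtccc

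The printed stretches differ widely although the genes share a function. Rps21 holds ETS letters in 2 places and SP1 letters in 1, while Rpl37a and Rpl5 hold none of the motifs. In Rps27 the TCT core runs into ETS letters at the start, and Rpl39l shows the same overlap. Such a match is a description and not a binding site, and a missing match says only that those letters are not in the bases searched.

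Motif letters were then counted in 300 bases, from 250 before to 50 after the start, for the 68 members with a RefSeq promoter entry. The other 20 members had no entry. The TCT core was present in 16 of 68 members (23.5%) and in 3.82% of the 17274 promoters of all genes. ETS letters were present in 33 members (48.5%) against 19.3%, and YY1 letters in 12 (17.6%) against 6.74%. SP1 letters were found in 57.4% of members and 46.9% of all promoters. Against promoters of genes with a gene-end peak in all 6 libraries, where all shares are from open genes, the SP1 order was the other way, with 59.7% of 62 members and 66.0% of 10041 genes. In the same open genes ETS letters were in 50.0% of members and 27.8% of genes, YY1 letters in 19.4% and 8.52%, and the TCT core in 24.2% and 3.37%. The E-box (7.35% of members, 7.99% of all promoters) and the TATA box (10.3% and 13.4%) were near their shares in all promoters. Median GC content was 57.0% in members and 56.3% in all promoters, with 21 CpG dinucleotides in the median member and 14 in the median promoter. Among open genes the members had the lower GC content, 57.5% against 61.3%, and the median was 21 CpG dinucleotides in both. No test was made of these shares.

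Nearly every ribosomal protein gene was open in every library. The number with a gene-end peak was 81 in each PBS library and 81, 82 and 81 in DOX replicates 1, 2 and 3, out of 88. The groups differed by 0.333 genes on average (p = 1.0, two-sided exact permutation test over 3 against 3 libraries, which cannot give less than 0.10). No member had a peak in all DOX and no PBS libraries, where 0.356% of all protein-coding genes did, and none in all PBS and no DOX libraries, where 0% did. Over all protein-coding genes, 58.6% to 63.9% had a gene-end peak in a library. The 81 members with a peak in all 6 libraries were 42 of 43 large subunit genes, 30 of 31 small subunit genes, all 3 stalk genes and 6 of 11 paralogs.

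The 7 remaining members fell into 2 kinds. Rpl10l, Rpl32l, Rps23rg1 and Rps27rt had no peak within the gene span or within 1 kb of it in any library. RPL10L is known as the testis copy of the X-linked RPL10. Rpl37rt had no gene-end peak, and a weak peak inside its span in PBS replicate 2 (fold enrichment 5.72) and DOX replicate 2 (6.36) only. A peak below the threshold of a library is not listed, so absence does not show that the chromatin was closed.

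Rps2 and Rpl17 were open, but their peaks lay inside the annotated span, over 1 kb from both of its ends. RPS2 lies at the mRNA entry of the small subunit. At its listed start the fold enrichment of Rps2 was 150, 162 and 120 in PBS against 157, 189 and 182 in DOX, with widths of 778 to 1012 bp. Its height percentile was 88.4, 89.7 and 93.1 in PBS and 88.1, 90.6 and 84.9 in DOX, and the groups overlapped. At the gene ends Rps2 had only a weak peak in DOX replicate 2. Within the span of Rpl17, fold enrichment was 59.0, 66.3 and 38.5 in PBS and 65.1, 78.6 and 82.8 in DOX. Counting peaks over the whole span, neither gene passed the test in height (adjusted p = 0.573 for Rps2 and 0.978 for Rpl17, limma with Benjamini-Hochberg adjustment over all genes).

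At Rpl22 the value depended on where the window ended. RPL22 binds RNA and is not essential to ribosomes in most tissues. Its gene-end peak was 12.8, 10.0 and 7.70 high (fold enrichment) in PBS, 10.3 in DOX replicate 1, and 124 and 137 in DOX replicates 2 and 3. The large values came from the promoter peak, which reached the window only in those 2 libraries, where it was 998 and 1075 bp wide. At the listed start itself the peak was present in all 6 libraries, at 116, 118 and 71.3 in PBS and 114, 124 and 137 in DOX. Over the span its height score, the normal score of the percentile, differed by -0.16 ± 0.08 (SE; adjusted p = 0.403, limma). With DOX replicate 1 left out, the gene-end values alone made Rpl22 the single member called, higher in height (adjusted p = 1.42e-10) and in width (adjusted p = 0.0206, limma). Rpl3l, known as the muscle copy of RPL3, is the reverse case: the peak counted for it is that of the neighbour Msrb1, 3882 bp from its listed start, and its own start had no peak.

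Ribosomal protein genes had high peaks. Median fold enrichment over the 81 members was 104, 105 and 66.8 in PBS and 107, 118 and 132 in DOX. Over all 12578 tested genes it was 80.6, 82.5 and 51.4 in PBS and 86.8, 96.5 and 109 in DOX, lower in each library. Of the 81 members, 50 to 60 were among the highest 10% of all deposited peaks of their library, a share of 61.7% to 74.1%, where 42.4% to 57.9% of tested genes were. The shallow PBS replicate 3 had the lowest fold enrichment for each of the 81 members. The + 1 in the fold enrichment pulls it down in shallow libraries: as the plain ratio of pileup to background, the members' median was 186, 200 and 185 in PBS and 169, 188 and 192 in DOX, and PBS replicate 3 no longer stood apart.

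**Figure D1:**
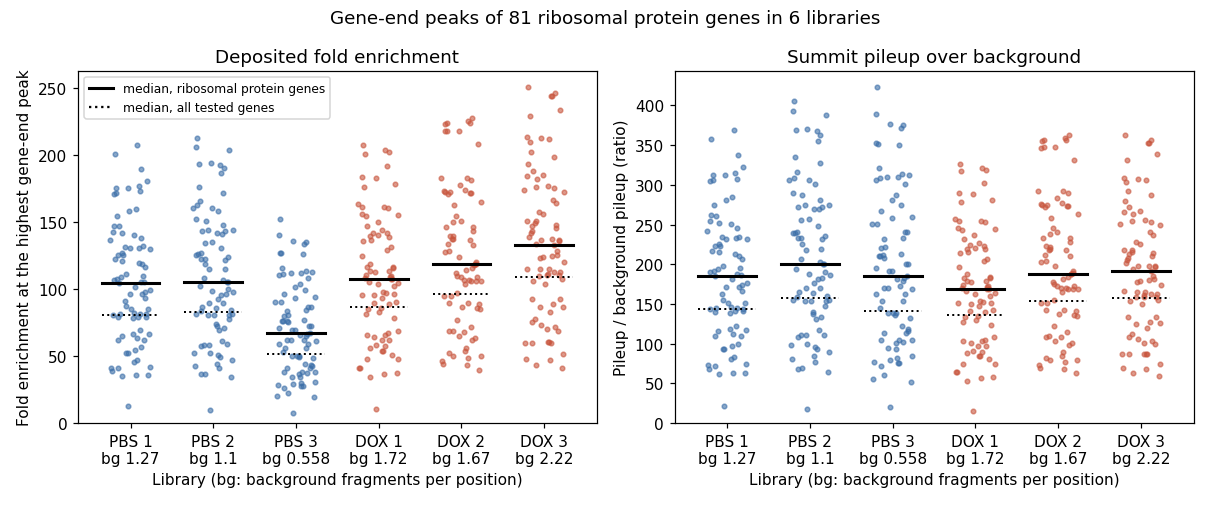
Each point is the highest gene-end peak of 1 of 81 ribosomal protein genes in 1 library (x axis, with the background pileup, bg, in fragments per position); the y axis is the deposited fold enrichment on the left and summit pileup over background on the right, both ratios. Solid lines are medians of the members and dotted lines medians of the 12578 tested genes: the members' median was above that of all tested genes in every library, and PBS replicate 3 was low on the left only.

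Within each library the median member stood at a height percentile of 62.6 to 66.6 among tested genes, where 50 is the median gene. The order of the members was nearly the same in every library, with a Spearman correlation of heights from 0.945 to 0.987 between any pair of libraries (81 genes; the libraries share the genes and their sequence). Small subunit genes had a median of 69.8 ± 1.75 (SD, n = 3) in PBS and large subunit genes 57.0 ± 1.54, the stalk genes 64.1 ± 1.43 and the paralogs with peaks 83.1 ± 0.780. The paralog median rests on 6 of 11 genes, those with a gene-end peak in all libraries. Among them is Rpl3l, whose counted peak is that of its neighbour Msrb1.

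Among the members with the highest peaks, the mean height percentile over the 6 libraries was 96.7 for Rps21 and 96.7 for Rpl37. It was 95.9 for Rpl27 and 95.2 for the paralog Rpl36al. For Rps21 (chr2:180257379-180258444), the small subunit gene whose promoter is shown with paired ETS letters, fold enrichment was 189, 190 and 135 in PBS and 202, 227 and 246 in DOX. All of these libraries lay at or above the 95.5th percentile for Rps21, while its unranked values were higher in DOX, whose libraries were deeper. The peaks of Rps21, Rpl37 and Rpl36al were also the highest gene-end peaks of the neighbours Cables2, Card6 and Mgat2, and could not be assigned to 1 gene of each pair. Such sharing held for 22 of 81 members (27.2%) and 25.9% of tested genes.

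The lowest peaks were those of Rpl37a, Rpl39l, Rpl39, Rps4x and Rpl35a, at mean height percentiles of 17.98, 19.3, 20.5, 21.6 and 22.7. RPL37A is a zinc-binding protein of the large subunit. Its fold enrichment was 35.7, 34.3 and 19.3 in PBS and 37.1, 39.7 and 41.3 in DOX, below that of Rps21 in each library. RPL39 lines the exit tunnel for new peptides, and fold enrichment at Rpl39 was 35.7, 41.0 and 27.6 in PBS and 36.4, 43.0 and 47.2 in DOX. At Rps4x, X-linked like Rpl39, the values were 38.8, 42.5 and 28.2 in PBS and 41.2, 44.1 and 47.8 in DOX. Rpl35a, a Diamond-Blackfan anemia gene, had 41.4, 52.0 and 20.5 in PBS against 41.2, 46.4 and 59.9 in DOX. These 5 genes were low in every library of both groups.

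**Figure D2:**
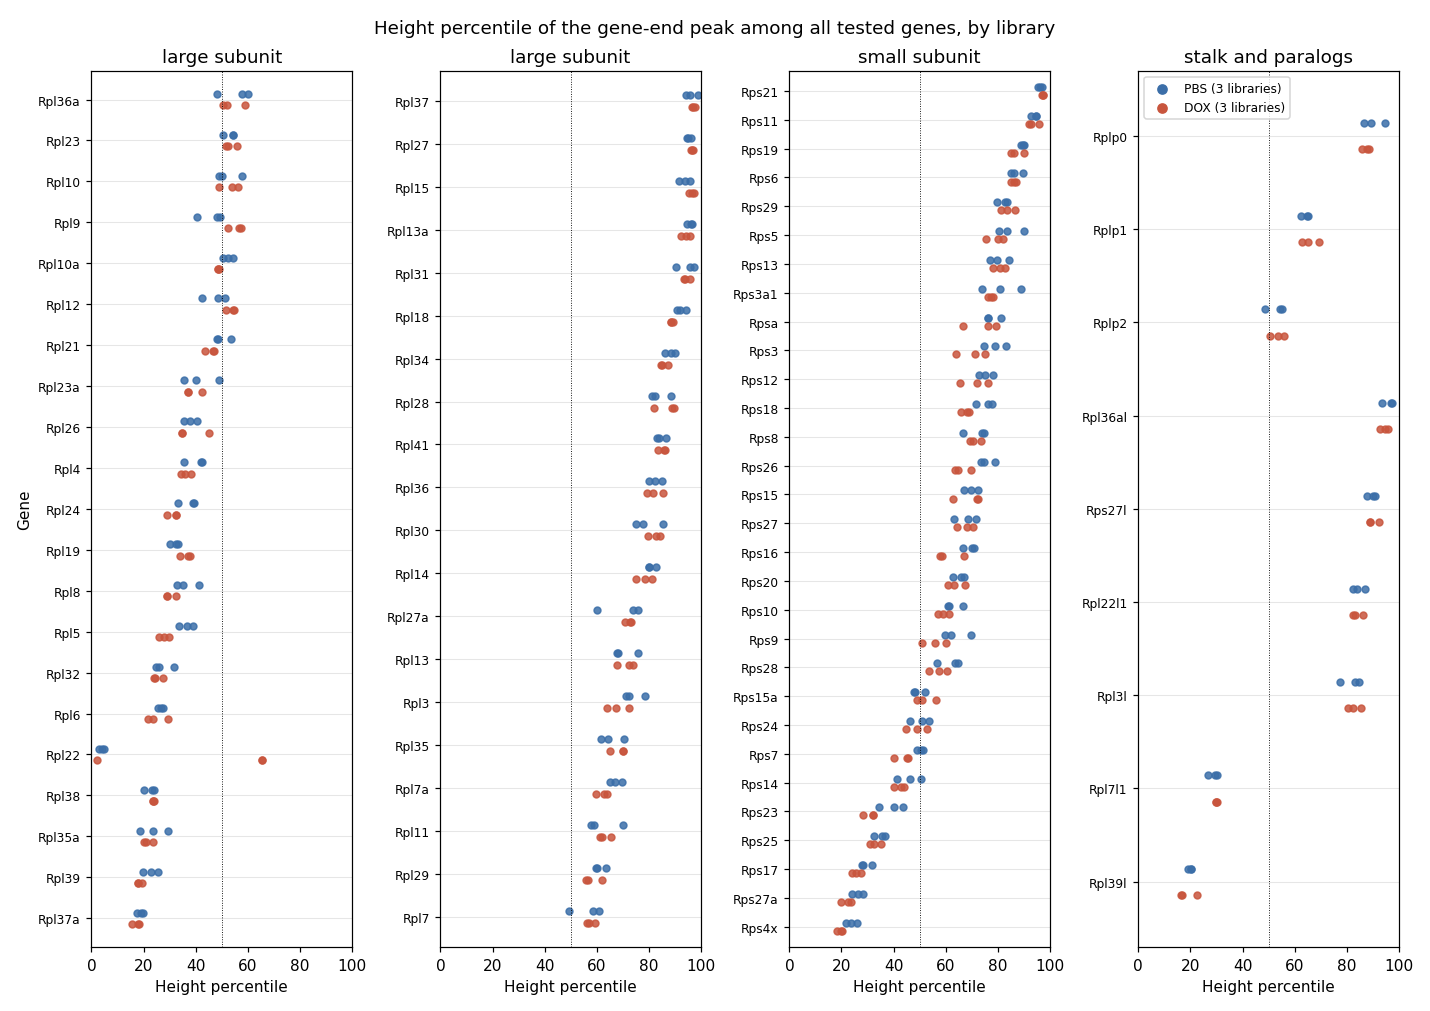
For ribosomal protein genes with a gene-end peak in all libraries (y axis, grouped by subunit; 1 of 81 is not shown), 3 PBS libraries (blue) and 3 DOX libraries (red) are plotted at the percentile of the gene's highest gene-end peak among 12578 tested genes (x axis; 50 is the dotted line). Points of 1 gene lie close together compared with the range over genes, except for Rpl22, whose promoter peak reached the window in 2 DOX libraries only.

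Widths were ordinary. The median gene-end peak of the members was 984, 1014 and 846 bp wide in PBS and 1080, 1108 and 1114 bp in DOX, against 948, 1018.5 and 782 bp and 1070, 1109 and 1146 bp over all tested genes. The median width percentile was 47.7 to 56.0. Ranks of width were less alike between libraries than ranks of height, with Spearman correlations of 0.723 to 0.899. Height and width were also less related among members (Spearman 0.235 to 0.335 within a library, n = 81) than among all tested genes (0.478 to 0.581), and no test of that difference was made.

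The widest peak was that of Rpl7, a 60S protein. It measured 2348, 2311 and 2311 bp in PBS against 2508, 2408 and 2517 bp in DOX, and its highest peak was also that of Rdh10. Mean width percentiles were 95.8 for Rpl7, 89.0 for Rpl10a, 86.4 for Rpl10, 81.03 for Rpl19 and 78.6 for Rps19. Rps19 is the gene most often mutated in Diamond-Blackfan anemia. It had a width of 1407, 1549 and 1168 bp in PBS against 1588, 1627 and 1647 bp in DOX, with a height percentile of 89.7 ± 0.620 in PBS against 87.2 ± 2.58 in DOX (SD, n = 3 each). The wide peak counted for Rpl19 has its summit at -4056 bp from the listed start and is shared with Cacnb1. The narrowest peaks were those of Rpl39l (mean width percentile 4.67), Rpl22 (14.6, from its far end in 4 libraries), Rps4x (17.4), Rpl37a (21.1) and Rps27 (23.2). Rps27 thus joined a narrow peak, 586, 660 and 530 bp in PBS against 665, 842 and 815 bp in DOX, to a height percentile of 67.9 ± 4.35 in PBS.

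**Figure D3:**
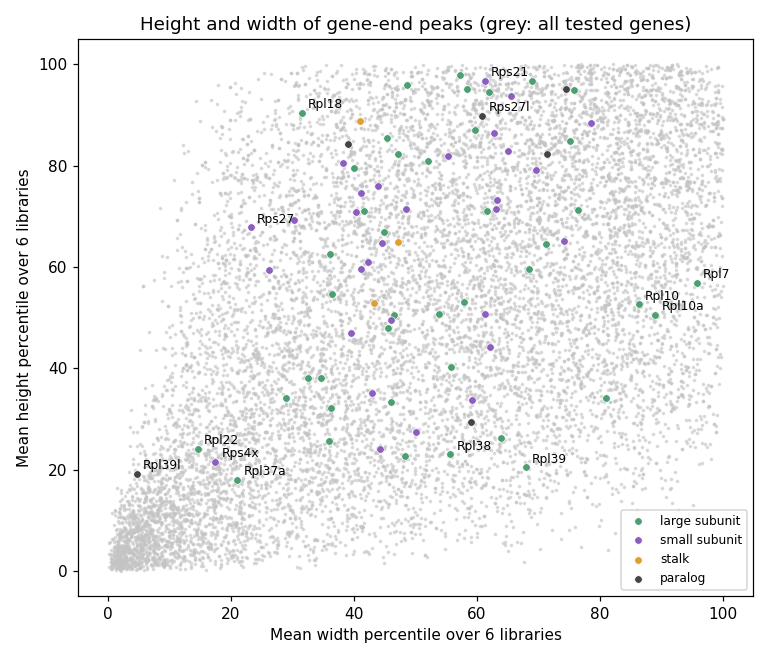
Mean percentile over 6 libraries of the width (x axis) and height (y axis) of the highest gene-end peak, for 12578 tested genes (grey) and 81 ribosomal protein genes coloured by subunit, some of them named. Members spread over most heights and widths; Rpl7 lies at the wide edge, Rpl39l at the narrow edge and Rps21 near the top.

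Summits sat just upstream of the start. For the 62 members with a listed start and a gene-end peak in all libraries, the median summit was at -45.75 bp (negative is upstream), and at -40 bp over 10041 tested genes with a listed start. It was upstream in 49 members and downstream in 13. A summit within 100 bp of the start was found in 44 of 62 members (71.0%) and in 57.3% of tested genes, and within 250 bp in 52 (83.9%) and 73.5%. The summits of Rps26 and Rps19 lay farther out, at -330 and -282.5 bp. For 6 members the highest gene-end peak was over 1 kb from the listed start: besides Rpl22, Rpl3l and Rpl19 these were Rpl18 (at -2753 bp), Rpl4 and Rpl41, whose peaks are shared with Snapc5 and Zc3h10.

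**Figure D4:**
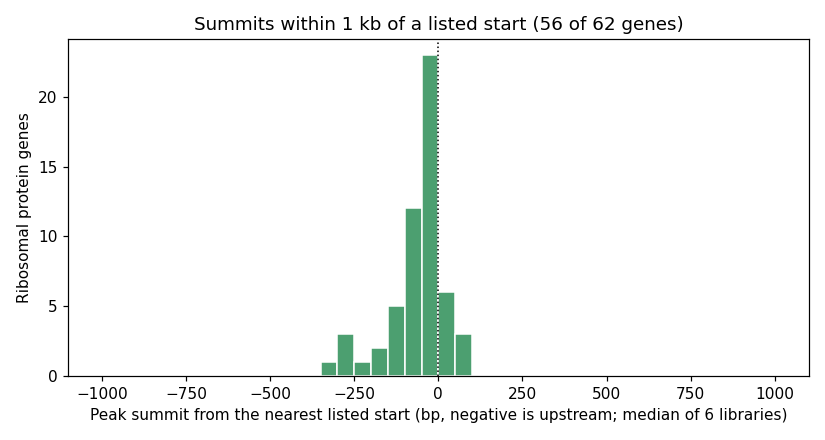
Number of ribosomal protein genes (y axis) by distance in bp from the nearest listed start to the summit of the highest gene-end peak (x axis, negative is upstream, median of 6 libraries), for the 56 of 62 genes within 1 kb. Most summits lie in the 100 bp before the start.

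No ribosomal protein gene differed between DOX and PBS past the threshold (adjusted p under 0.05, limma with Benjamini-Hochberg adjustment over 12578 genes) in height or in width. For height 0 of 81 members were called higher, where 0.302% of tested genes were (38), and 0 lower, where 0.0239% were (3). For width 0 were called higher against 0.716% of tested genes (90) and 0 lower against 0.0159% (2). The smallest adjusted p of a member was 0.127 for height and 0.179 for width. An unadjusted p under 0.05 was reached for height by 15 members, 2 higher and 13 lower in DOX, and by 1756 of the 12578 tested genes. For width it was reached by 9 members and 11.1% of tested genes. In simulated data of this size, made with 100 genes for each shift, 63 of 100 height shifts of 0.5 and 93 of 100 shifts of 1 in score were recovered, but 3 and 48 of 100 for width. Shifts under 0.5 were not simulated. The members' median score difference was -0.05 for height and -0.09 for width, so recovery at such sizes is not known.

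In rank, the members' heights leaned lower in DOX. The median height percentile was 65.5 ± 0.981 in PBS against 63.3 ± 0.660 in DOX (SD, n = 3 each). With 66.6, 64.9 and 64.9 in PBS and 63.9, 62.6 and 63.2 in DOX, the groups did not overlap. The difference of -2.20 was -3.32 with windows of 2.5 kb and -3.96 at listed starts alone. The score was below 0 (lower in DOX) for 53 of 81 members (65.4%) and for 52.4% of tested genes. On a centred log2 scale the difference was below 0 for 66 members (81.5%) and 56.9% of tested genes. Unranked, every DOX library had a higher fold enrichment than every PBS library at 33 members (40.7%) and 53.0% of tested genes. Groups did not overlap for 15 members that were lower, where 10.6% of tested genes were, and for 4 that were higher, against 9.34%. In the same fit 1 of 9 tested MSPC markers was called higher, and the markers' median height percentile was 50.8 ± 2.93 in PBS and 64.1 ± 1.60 in DOX. In the 3 tested erythroid markers it was 29.96 ± 3.50 and 41.0 ± 5.09. The part of cell makeup or of depth in the members' values was not tested.

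For width the members followed the other genes. The median width percentile was 52.9 ± 3.14 in PBS against 49.5 ± 1.59 in DOX (SD, n = 3 each), and the difference of -3.47 was -1.89 without PBS replicate 3. The median score difference was -0.09 over members and -0.08 over all tested genes. It was below 0 for 51 of 81 members (63.0%) and for 62.4% of tested genes, and the part of depth in these ranks was not tested. Groups did not overlap for 18 members that were narrower in rank, against 19.6% of tested genes, and for 6 that were wider, against 5.21%. In bp, every DOX library was wider than every PBS library at 35 members (43.2%) and 38.5% of tested genes.

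**Figure D5:**
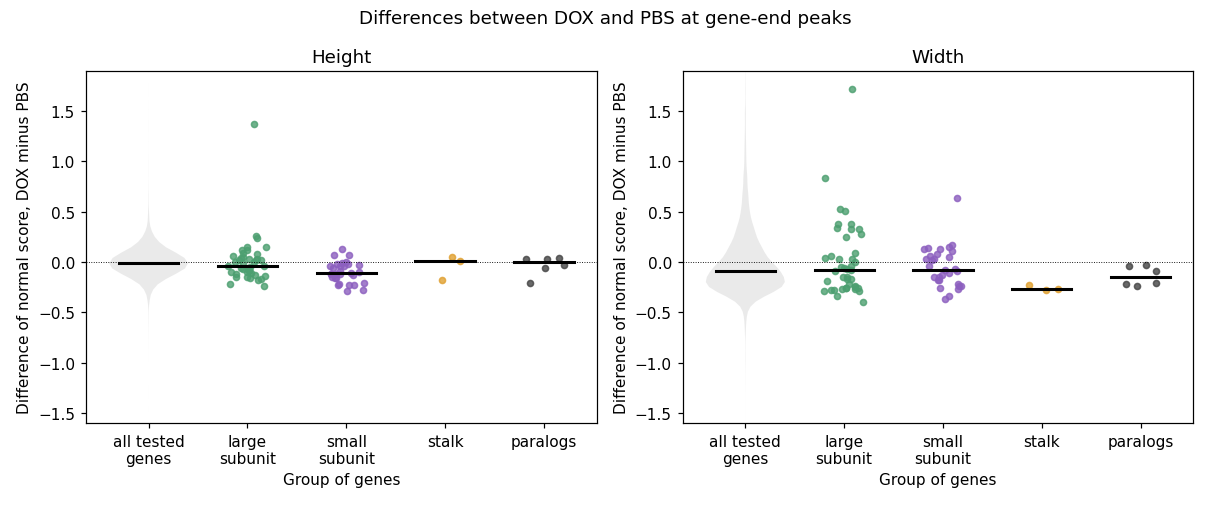
Difference in normal score of height (left) and width (right), DOX minus PBS (y axis), for all 12578 tested genes (grey shape, whose tails pass the axis limits) and for each ribosomal protein gene by group (x axis; bars are medians). Small subunit genes lie mostly below 0 for height, with a median of -0.11, and the point at 1.37 for height and 1.72 for width is Rpl22.

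Lower heights were more frequent among small than among large subunit genes. The difference was below 0 for 26 of 30 small subunit genes, with a median of -0.11, and for 23 of 42 large subunit genes, with a median of -0.04. The median over all tested genes was -0.01. An unadjusted p under 0.05 was reached by 9 of 30 small subunit genes, all lower, and by 6 of 42 large subunit genes (14.3%), 4 of them lower. Over all tested genes 13.96% reached it, 867 higher and 889 lower. The small subunit median percentile was 69.8 ± 1.75 in PBS and 65.4 ± 0.365 in DOX. In large subunit genes the median percentile was 57.0 ± 1.54 and 57.6 ± 0.695, so that its difference had the opposite sign to their median score. Without PBS replicate 3 the difference was below 0 for 23 of 30 small and 26 of 42 large subunit genes (76.7% and 61.9%). Without DOX replicate 1 it was so for 23 of 30 and 25 of 42 (76.7% and 59.5%), and on the centred log2 scale for 29 of 30 and 31 of 42, against 56.9% of tested genes. The difference between the subunits was not tested.

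Rps26, a Diamond-Blackfan anemia gene whose protein sits at the mRNA exit of the small subunit, had the largest negative height difference with separated groups. Its height percentile was 73.5, 74.8 and 79.1 in PBS and 69.6, 63.6 and 64.7 in DOX, and every DOX library was below every PBS library. The score difference was -0.29 ± 0.08 (SE; adjusted p = 0.127, limma). Its unranked fold enrichment, 116, 124 and 86.7 in PBS and 117, 120 and 136 in DOX, overlapped. Rps26 was also narrower in rank, by -0.33 ± 0.12 (adjusted p = 0.416, limma), at 818 to 956 bp in PBS and 869 to 965 bp in DOX.

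Rps23, at the decoding center, stood at height percentiles of 40.3, 43.7 and 34.3 in PBS and 32.3, 32.1 and 28.2 in DOX. For Rps18, in the head of the small subunit, they were 77.9, 76.3 and 71.8 in PBS and 66.0, 68.1 and 68.9 in DOX. Both genes had separated groups, with score differences of -0.23 ± 0.08 each (adjusted p = 0.170 for Rps23 and 0.210 for Rps18, limma). Rps4x and Rps7 also had lower, separated groups, at -0.15 and -0.16. Rpsa, the precursor of the laminin receptor and a 40S protein, had the largest narrowing among separated groups. Its width was 921, 1014 and 844 bp in PBS against 960, 918 and 936 bp in DOX. In rank this was 47.7, 49.7 and 55.8 against 41.4, 35.2 and 33.9, a score difference of -0.36 ± 0.12 (adjusted p = 0.416, limma), while the height groups overlapped.

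In the large subunit, Rpl5 had the smallest p. The fold enrichment of Rpl5 (chr5:107900508-107909005) was 61.7, 58.7 and 41.1 in PBS and 51.1, 63.6 and 68.9 in DOX. In rank it was 36.5, 33.5 and 39.1 against 26.0, 29.7 and 27.7, with separated groups. The score difference was -0.24 ± 0.07 (adjusted p = 0.127, limma). Rpl11, its partner in the 5S particle, had overlapping groups: the height percentile was 69.9, 58.9 and 57.8 in PBS and 65.4, 62.2 and 61.3 in DOX, a score difference of 0.02 ± 0.09. The peak of Rpl11 was instead wider, at 751, 833 and 529 bp in PBS against 1004, 1005 and 976 bp in DOX. Every DOX library was wider than every PBS library there, and the score difference of width was 0.28 ± 0.12 (adjusted p = 0.416, limma). Rpl18 had lower height with separated groups, at -0.21 ± 0.10, but the peak counted for it lies upstream of its start.

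Large subunit genes with higher peaks in DOX and separated groups were Rpl9, Rpl12, Rpl27 and Rpl19. For Rpl9, height percentiles were 49.2, 48.4 and 40.5 in PBS and 56.7, 57.2 and 52.3 in DOX, a score difference of 0.24 ± 0.08 (adjusted p = 0.188, limma). This peak is shared with Lias, and it also ranked wider, from 813 to 957 bp in PBS to 1199 to 1280 bp in DOX. RPL12 lies at the base of the stalk, and at Rpl12 the percentiles were 51.3, 42.3 and 48.6 in PBS and 54.6, 54.5 and 51.5 in DOX, a difference of 0.15. The differences were 0.15 for Rpl27 and 0.12 for Rpl19. The peak counted for Rpl19 is the one shared with Cacnb1, far upstream of the listed start, and is not a peak at that start. The height difference of Rpl19 turned to -0.10 under 1 of 15 settings, and its width difference to -0.19 under 1 of 15.

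The largest width difference with separated groups was at Rpl13, a 60S protein. Its highest peak was 731, 748 and 453 bp wide in PBS and 1291, 1297 and 1065 bp in DOX. The number of gene-end peaks was 3, 2 and 1 in PBS and 2 in each DOX library. All DOX libraries were wider, and the score difference was 0.84 ± 0.18 (adjusted p = 0.179, limma), with height percentiles that overlapped. Rpl27a followed with 1296, 1301 and 938 bp in PBS against 1692, 1704 and 2061 bp in DOX. Rpl34 had 1021, 1000 and 807 bp in PBS against 1363, 1410 and 1335 bp in DOX, and Rpl37 had 1190, 1184 and 886 bp and 1434, 1573 and 1597 bp. Their score differences were 0.51, 0.38 and 0.33, and none passed the test (adjusted p = 0.342, 0.403 and 0.416, limma). The caller can list neighbouring summits as 1 peak or several, and whether these wider peaks are joined ones was not tested. Among large subunit genes narrower in rank with separated groups, Rpl23 had 1099, 1200 and 998 bp in PBS against 1115, 1152 and 1117 bp in DOX, Rpl32 1250, 1211 and 1066 bp and 1246, 1192 and 1248 bp, and Rpl18 836, 883 and 579 bp and 792, 804 and 821 bp. In bp these overlapped between groups, and the score differences were -0.33, -0.29 and -0.28.

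The stalk proteins Rplp0, Rplp1 and Rplp2 recruit translation factors to the ribosome. Rplp0 was the highest of them, with fold enrichment of 147, 162 and 127 in PBS and 161, 172 and 193 in DOX. Rplp1 had 97.8, 105 and 66.8 in PBS against 116, 119 and 137 in DOX, and Rplp2 had 87.2, 89.2 and 50.1 and 95.2, 97.3 and 114. In rank the height groups of each overlapped, and the score differences were -0.17 ± 0.11, 0.05 ± 0.08 and 0.02 ± 0.08. All 3 were narrower in rank, by -0.23 to -0.28, against -0.08 for the median tested gene. The groups were separated only for Rplp1.

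At 3 of the paralogs the peak was higher than at the parent in every library. Rps27l, a p53 target, had fold enrichment of 160, 158 and 112 in PBS and 161, 183 and 212 in DOX, above its parent Rps27, with 107, 102 and 75.8 and 108, 133 and 142, in every library. It was also wider, at 1043 to 1299 bp. Rpl22l1, which can take the place of RPL22, had 141, 142 and 103 in PBS against 144, 174 and 177 in DOX, above the Rpl22 start in every library. Rpl36al had 171, 206 and 140 in PBS against 183, 217 and 213 in DOX, and Rpl36a 91.2, 80.6 and 61.6 and 89.7, 111 and 110.

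Of the other pairs, Rpl3l has only the peak of its neighbour to compare, and in the next 2 the paralog was not the higher one throughout. Rpl7l1 stood below Rpl7, with fold enrichment of 52.4, 52.5 and 28.9 in PBS and 58.1, 64.7 and 72.9 in DOX against 79.3, 95.4 and 62.3 and 96.7, 107 and 124. Rpl39l, known from testis, was as low as Rpl39 in height, with 34.8, 36.7 and 22.5 in PBS and 34.2, 49.8 and 43.4 in DOX. Its peak was the narrowest of all members, at 261, 369 and 227 bp in PBS against 453, 387 and 326 bp in DOX, where that of Rpl39 was 1108 to 1463 bp. No paralog had a height difference with an unadjusted p under 0.05, and the score differences of the 6 ran from -0.20 (Rpl36al) to 0.04. The 5 paralogs without a gene-end peak had open parents: Rpl10, Rpl32, Rpl37, Rps23 and Rps27 all had one in each library.

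Among genes that work beside the cytosolic ribosomal proteins 1 was called in height, Eif4ebp1, where 0.302% of tested genes were called higher and 0.0239% lower. Fau, which encodes a ribosomal protein fused to a ubiquitin-like protein, and Rack1, a 40S protein, were open in every library and had height differences of -0.16 and -0.17, which did not pass the test. For mitochondrial ribosomal proteins 75 of 78 genes were tested and 0 called. Their median height percentile was 49.1 ± 2.74 in PBS and 45.9 ± 0.739 in DOX, with 46 of 75 differences (61.3%) below 0 against 52.4% of tested genes, and the group medians lay below those of the cytosolic genes. Of 36 translation factors 1 was called higher and 0 lower. Eif4ebp1 is the translation repressor that mTOR inactivates. Its height percentile was 64.9, 67.7 and 64.2 in PBS and 80.2, 77.5 and 79.3 in DOX, a score difference of 0.41 ± 0.08 (adjusted p = 0.0225, limma). Yet 24 of the 36 factors (66.7%) had differences below 0, with a median of -0.04, while their median percentile went from 63.9 to 68.4. Among ribosome assembly genes 0 of 52 tested were called, and the median percentile was 60.7 ± 1.79 and 61.0 ± 0.910. Of the transcription factors and signal genes tied to ribosomal protein genes, among them Myc, Gabpa, Yy1, Mtor and Larp1, 0 of 12 tested were called.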

How the data were processed

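Peak lists of 6 ATAC-seq libraries were used as the authors deposited them, 1 list each. The submitters' processing notes give mm10 as the build. Per the submitters' processing notes, MACS2 2.2.7.1 (a peak caller) and Bowtie2 2.4.5 (an aligner) were among the tools, with no settings; read filters and Tn5 shifts are not given in sources used here. For each peak the authors deposited a fold enrichment, which is a ratio, a −log10 p, a −log10 q, a score equal to 10 times the −log10 q, and the summit's distance from the peak's start. These are the authors' values of single peaks and are not scaled between libraries. The background, read here as depth, was solved from the fold and the −log10 p of 3033 to 3936 peaks per library. These were a subset of the peaks under a −log10 p of 200. In that same subset, 1 background per library made 100% of the pileups whole to within 0.05. Without the caller's settings, whether a pileup counts fragments or extended reads is not known.

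Gene spans came from RefSeq GRCm38.p6, without strand, exons or UTRs; 68 of 88 members matched a promoter entry, which gives strand and start. A peak counted from 1 bp of overlap. Peaks on chromosome Y (13 to 19 per library) were left out. Within-library ranks were turned into normal scores and tested with limma 3.58.1 (trend, robust; R 4.3.3), DOX against PBS, without a replicate block, and Benjamini-Hochberg adjustment over 12578 genes. The test was checked on simulated data. Named genes were called members, the 5 highest, lowest, widest and narrowest, up to 5 with the largest differences and separated groups in each direction, members lacking a peak in a library, paralogs with their parents, and Rpl5, Rpl11, Rplp0, Rplp1, Rplp2, Rpsa, Rps19 and Rpl35a; other genes were named after their values were seen. Single genes that the rule names but that are withheld are not reported here. Members and lists were chosen with earlier results of these data known. Alternatives changed the window, list length, peak choice, scale, moderation, block and libraries.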

Additional observations from a re-analysis of the deposited data

How the results depend on the processing

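The count of ribosomal protein genes called was 0 for height and 0 for width under all settings except without DOX replicate 1, where Rpl22 was called in both, so that the range over left-out libraries was 0 to 1 for each. The difference in median height percentile was -3.32 with windows of 2.5 kb and -3.96 at annotated starts only, against -2.20, and -2.53 to -1.63 with a library left out. As centred log2 values the median differences were -0.072 for height and -0.063 for width. The remaining 12 settings for height, and the other 14 for the median width percentile, gave a difference of the same sign within the replicate spread. Neither of these medians changed sign under any setting, but single genes did: the height difference of Rpl22 ran from -0.16 to 2.16 and that of Rpl19 from -0.10 to 0.15. The median height difference of the 3 stalk genes, 0.02, was -0.02 without PBS replicate 3, -0.02 without DOX replicate 1 and -0.07 at annotated starts, where 2 of them were tested. Counting peaks over the whole span, a setting chosen after seeing the data, called 0 members in each measure. With a replicate block 0 members were called (smallest adjusted p 0.195 for height and 0.138 for width, limma). The replicate numbers showed no pairing: deviations of same-numbered libraries correlated at 0.016, -0.070 and -0.086 for height. Differently numbered libraries correlated at -0.037 to 0.113, the largest for PBS replicate 2 with DOX replicate 3. Pairing under other numbers was not tested. Calls over all genes moved more, from 41 in height to 28 with the block, 19 with summits in the window, 14 without trend and robust moderation, 19 to 101 with a library left out, and from 92 in width to 27 with the block and 39 to 176 with a library left out. Depth limits what a missing peak can show, since a peak below the cutoff of its library is not listed. The lowest listed peak was 5.51, 5.47 and 8.97 times the background in PBS and 4.65, 4.78 and 4.05 times in DOX, so the cutoff over background was lower in DOX. For width, simulated shifts of 0.5 were nearly all missed.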
